A study of Mus musculus with 98 samples.

Results

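Transforming growth factor-β (TGF-β) ligands and receptors were followed across the mouse thymic stroma as a set of 8 genes. The set holds the ligands Tgfb1, Tgfb2 and Tgfb3, the kinase receptors Tgfbr1, Tgfbr2 and Acvrl1, and the co-receptors Tgfbr3 and Eng, and its members were chosen by name. All 8 were counted in each of the 3 tables, among 22231 genes in an age series of single cells, 20760 genes in single cells of newborn mice and 39179 genes in bulk RNA-seq of sorted populations. The study described the nonepithelial stroma of the thymus from its first formation to young adulthood, and asked how it changes in a mouse model of 22q11.2 deletion syndrome.

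The age series held 36208 Ter119-CD45-EpCAM- cells of wild-type C57BL/6 mice in 8 libraries, with 1 library each at embryonic day E12.5 and E13.5 (thymi pooled over litters) and 2 libraries, from 2 thymi per age, at E16.5, at birth (P0) and at 4 weeks. Each cell carries the deposited name of 1 of 19 subtypes, among them capsular (CapFb) and medullary (MedFb) fibroblasts, pericytes (Pc), vascular smooth muscle (VSM), arterial (EnA), capillary (EnC) and venous and lymphatic (EnVL) endothelium, mesothelium (Mes), neural crest-derived (NC) and proliferating (Pr) cells. The newborn table held 21451 Ter119-CD45- cells, epithelium included, from 3 P0 libraries labelled Tbx1+/- Crkl+/- and 3 of wild-type littermates. The compound heterozygous mice came from Tbx1+/- males, whose mutant allele carries lacZ, and Crkl+/- females with a germline null allele, so that the alleles were not confined to a lineage, and these cells were fixed before capture. The bulk table held 84 libraries of wild-type CD45- cells in 14 groups of 6. The groups were the nonepithelial populations CD31+ (endothelium), Ly51+gp38- (pericytes and vascular smooth muscle), gp38+CD26+ (capsular fibroblasts) and gp38+CD26- (mainly medullary fibroblasts) and cortical (cTEC) and medullary (mTEC) epithelium at P0 and 4 weeks, and mTEChi and mTEClo at 4 weeks.

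TGF-β ligands are secreted in a latent form, held in the extracellular matrix by binding proteins and released by integrins and thrombospondin. An active ligand binds the type II receptor TGFBR2, which phosphorylates the type I receptor TGFBR1 and through it SMAD2 and SMAD3. In endothelium a second type I receptor, ALK1, the product of Acvrl1, signals through SMAD1 and SMAD5 together with its co-receptor endoglin, the product of Eng, and also binds BMP9 and BMP10. Betaglycan, the product of Tgfbr3, presents ligand to TGFBR2 and is needed above all for TGF-β2, which binds TGFBR2 poorly by itself. In mesenchyme the pathway is known for control of matrix genes and of smooth muscle differentiation, and in vessels for their assembly and stability.

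Gene counts ranged from 28583048 to 93040640 UMIs per library in the age series (median 10005 to 14031 UMIs per cell) and from 4978011 to 31418527 in the newborn libraries (median 2391 to 4686 per cell), and libraries shared at most 14 cell barcodes. In bulk, 83 libraries held 5785352 to 15852166 gene counts. The remaining library, replicate 2 of gp38+CD26+ at 4 weeks, held 25702 and was left out, so that this group had 5 libraries. CD31+ libraries had the markers of their label. Summed over Pecam1, Cdh5, Tie1, Kdr and Egfl7, endothelial markers reached 3312 to 7382 counts per 1000000 gene counts (CPM) in CD31+ libraries at P0 and at most 42.2 CPM in the other nonepithelial populations at that age. Mesothelial markers in gp38+CD26+ libraries summed to 0 to 325.1 CPM at P0 and 438.1 to 5181 CPM at 4 weeks. Erythroid markers in the same libraries summed to 0.0933 to 1.38 CPM and 823.7 to 2166 CPM. Their part in the results of gp38+CD26+ was not tested. Replicate 1 of the P0 CD31+ group had the lowest endothelial sum of its group, 3312 CPM, and stood apart for Eng and Acvrl1, so CD31+ results are also given without it. It was low for both genes, so leaving it out raises their P0 CD31+ levels by construction and is no check of them. In the age series the same endothelial markers summed to 2417 to 5162 CPM in venous and lymphatic endothelium and to 9.4 to 38.6 CPM in the capsular subtype CapFb4, and haematopoietic markers to medians of at most 42.4 CPM in every subtype. Erythroid markers, a separate list, had medians of 61.4 CPM (CapFb3) to 853.9 CPM (CapFb4) in the capsular subtypes and reached 6657 CPM in CapFb1b. The part of such RNA in the levels was not tested. Exons of any 1 other gene overlapped at most 7.6% of the exon bases of a member (Gm48008 over Tgfb3, which Gm37804 also overlapped over 4.82%), so its counts could hold reads of a neighbour. Crkl was not lower in the libraries labelled Tbx1+/- Crkl+/-, at 24.1, 23.6 and 26.9 CPM against 23.0, 25.1 and 18.4 CPM in wild type. Tbx1 had 0, 0 and 8 UMIs against 13, 6 and 19, or 0, 0 and 0.872 CPM against 1.79, 0.441 and 0.605 CPM, with overlap. Genotype is therefore given as labelled.

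Promoter sequence from RefSeq (GRCm38.p6, 250 bases before to 50 after the start of the gene, on the gene's strand) was at hand for 5 of the 8 members. It is shown for Eng (chr2:32646345-32646644, plus strand) and Tgfb1 (chr7:25686752-25687051, plus strand), both at their highest level in endothelium. It is also shown for Tgfb2 (chr1:186705940-186706239, minus strand) and Tgfbr2 (chr9:116175314-116175613, minus strand), whose age changes are plotted further on. Capitals mark GGAA or its reverse complement TTCC, the core letters bound by ETS factors such as the endothelial factor ERG.
Eng: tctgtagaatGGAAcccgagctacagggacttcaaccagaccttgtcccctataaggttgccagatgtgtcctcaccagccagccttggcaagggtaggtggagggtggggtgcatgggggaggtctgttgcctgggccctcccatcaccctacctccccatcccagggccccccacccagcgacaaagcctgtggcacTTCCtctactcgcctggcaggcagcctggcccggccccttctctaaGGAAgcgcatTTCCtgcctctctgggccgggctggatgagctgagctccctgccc
Tgfb1: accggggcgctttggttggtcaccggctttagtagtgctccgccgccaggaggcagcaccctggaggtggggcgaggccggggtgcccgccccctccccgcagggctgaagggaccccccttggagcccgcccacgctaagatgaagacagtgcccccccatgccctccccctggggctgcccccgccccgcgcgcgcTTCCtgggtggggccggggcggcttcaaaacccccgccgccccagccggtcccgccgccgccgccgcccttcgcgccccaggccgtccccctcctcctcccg
Tgfb2: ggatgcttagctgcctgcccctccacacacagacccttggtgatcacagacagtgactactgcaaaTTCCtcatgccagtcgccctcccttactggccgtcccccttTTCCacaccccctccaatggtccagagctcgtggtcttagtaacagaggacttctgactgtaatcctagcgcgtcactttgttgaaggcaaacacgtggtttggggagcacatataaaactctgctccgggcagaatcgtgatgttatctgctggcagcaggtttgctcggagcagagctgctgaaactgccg
Tgfbr2: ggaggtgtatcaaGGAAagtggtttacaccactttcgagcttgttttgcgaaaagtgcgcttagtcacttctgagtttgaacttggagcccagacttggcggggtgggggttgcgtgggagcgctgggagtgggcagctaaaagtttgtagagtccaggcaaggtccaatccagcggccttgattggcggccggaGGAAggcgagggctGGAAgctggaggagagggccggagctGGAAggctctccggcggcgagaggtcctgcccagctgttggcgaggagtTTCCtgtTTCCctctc
The 4 letters occurred 4 times in the Eng window, 1 time in that of Tgfb1, 2 times in that of Tgfb2 and 6 times in that of Tgfbr2. Of 32851 promoter windows of this length 96% held them at least once, and 15.7% held them 6 times or more, as the Tgfbr2 window did. The letters TATAAA stood in the Tgfb2 window only among these 4. These matches describe the letters and are no evidence of binding.

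Tgfb1 (ENSMUSG00000002603, chr7:25687002-25705077 in GRCm38, as for all positions given), the TGF-β isoform best known from immune cells and vessels, had its highest levels in endothelium in this stroma. Over the 8 libraries of the age series its mean level was 236.5 ± 48.2 CPM (SD, n = 8) in venous and lymphatic endothelium (EnVL), 203.6 ± 43.9 CPM in capillary endothelium (EnC) and 174.7 ± 34.2 CPM in arterial endothelium (EnA). The 3 endothelial subtypes overlapped in their spread, and below them the level dropped to 54.4 ± 14.4 CPM in pericytes (Pc), a gap larger than either SD. Medullary fibroblasts lay between 29.7 and 41.1 CPM, and capsular fibroblasts between 7.09 CPM in CapFb4 and 24.1 CPM in CapFb2a. Endothelium held 9.488% of all UMIs of the age series and 45.26% of those of Tgfb1. At least 1 Tgfb1 UMI was found in 85.56% of EnVL cells (median depth 11886 UMIs) and in 10.24% of CapFb4 cells (median depth 17581 UMIs). After each cell was thinned to 2000 UMIs these shares were 35.74% and 1.593%. The newborn wild-type libraries, which are separate from the age series, gave the same leading subtypes, with 155.9 ± 22.3 CPM in EnVL, 123.5 ± 34.5 CPM in EnC and 106.3 ± 32.5 CPM in EnA (n = 3), against 5.54 to 21.9 CPM in the 6 capsular subtypes found in all 3 of them. The study annotated the nonepithelial newborn cells by the subtypes of the age series. Shared leading subtypes are therefore partly built in and no independent check.

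Tgfb2 (ENSMUSG00000039239, chr1:186622792-186705989), the isoform most tied to development of mesenchyme and the heart, was a mural and fibroblast transcript. Its mean level was highest, though first in only 2 of 8 libraries, both of P0, in vascular smooth muscle (VSM), at 155.2 ± 95.3 CPM (n = 8), followed by CapFb1b, CapFb1a, CapFb1c and MedFb1a at 143.5 to 130.7 CPM. The SDs were as large as the differences among these 5, so no order among them is given. The lowest levels were those of EnC, at 21.2 ± 10.9 CPM, and EnVL, at 16.2 ± 19.6 CPM, whereas EnA held 102.6 ± 80.9 CPM. Endothelium carried 2.309% of all Tgfb2 UMIs. A Tgfb2 UMI was found in 57.83% of VSM cells (median depth 9349 UMIs) and 9.308% of EnVL cells, or 20.26% and 2.046% after thinning.

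Tgfb3 (ENSMUSG00000021253, chr12:86056745-86079041), an isoform with roles in epithelial fusion and scarring, was likewise low in endothelium but led in other mesenchyme. It reached 58.9 ± 40.3 CPM in CapFb2a and 56.2 ± 21.5 CPM in mesothelium (Mes, n = 7), then 45.4, 44.0 and 41.5 CPM in CapFb2b, CapFb3 and VSM. These 5 overlapped. Medullary fibroblasts held 11.4 to 18.9 CPM and the endothelial subtypes 3.53 to 5.34 CPM. In the newborn wild-type libraries, labelled by the subtypes of the age series, CapFb2a also led for Tgfb3, with 50.5 ± 15.2 CPM (n = 3).

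Among the kinase receptors, Tgfbr1 (ENSMUSG00000007613, chr4:47353222-47414931), which carries the signal to SMAD2 and SMAD3, varied least between subtypes. Its means ran from 55.9 ± 18.2 CPM in CapFb1a through 51.3 CPM in CapFb2b and 51.1 CPM in CapFb1c to 23.9 CPM in Pc, 22.1 CPM in EnA and 20.3 ± 9.4 CPM in VSM, each step being smaller than the SD. Tgfbr2 (ENSMUSG00000032440, chr9:116084293-116175360), the ligand-binding kinase, had its highest means in CapFb4, at 212.3 ± 150.2 CPM, and EnA, at 198.6 ± 83.9 CPM, which overlapped, EnA being first in 5 of 8 libraries and CapFb4 in the 2 of 4 weeks. It was lowest in the mural subtypes Pc, at 29.6 ± 12.498 CPM, and VSM, at 25.7 ± 14.7 CPM. A Tgfbr2 UMI was found in 88.51% of CapFb4 cells and 21.1% of VSM cells, or in 35.49% and 5.085% after thinning. In the newborn wild-type libraries EnA held 365.8 ± 155.04 CPM of Tgfbr2, CapFb4 224.3 ± 24.5 CPM and VSM 22.9 ± 4.4 CPM. Acvrl1 (ENSMUSG00000000530, chr15:101128522-101145336), which encodes ALK1, led in EnA at 235.6 ± 74.2 CPM, with EnC at 129.3 ± 40.5 CPM and EnVL at 113.4 ± 35.3 CPM. The gaps from EnA to EnC and from EnVL to CapFb1b, the next subtype at 62.2 CPM, were each larger than the SDs.

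Of the co-receptors, Eng (ENSMUSG00000026814, chr2:32646595-32682669) followed the endothelium and Tgfbr3 (ENSMUSG00000029287, chr5:107106570-107289629) did not. Eng stood at 815.6 ± 318.5 CPM in EnVL, 550.2 ± 142.3 CPM in EnA and 528.9 ± 159.3 CPM in EnC, then at 184.1 ± 56.5 CPM (n = 6) in MedFb2b, the highest fibroblast subtype. At least 1 Eng UMI was found in 98.81% of EnVL cells, 45.05% of CapFb4 cells and 13.31% of mesothelial cells (median depth 13552 UMIs), the subtype with the lowest level at 16.3 ± 13.1 CPM, or in 75.69%, 9.101% and 1.871% after thinning. How much of the UMIs outside endothelium was free RNA was not tested. Endothelium, with 9.488% of all UMIs, carried 38.53% of Eng UMIs and 23.03% of those of Acvrl1. The larger class of fibroblasts carried 45.67% and 56.48%. Tgfbr3 ran from 91.6 ± 32.1 CPM in neural crest-derived cells (NC) and 88.9 ± 74.8 CPM in CapFb4 to 28.0 CPM in VSM and 20.3 ± 14.7 CPM in EnA, without a gap larger than the SD, and NC was first in 6 of 8 libraries and CapFb4 in 2. Fibroblasts, with 58.46% of all UMIs, carried 72.18% of those of Tgfbr3, 73.19% of those of Tgfbr2 and 69.8% of those of Tgfbr1. Subtypes were defined by the study from these same counts, so their levels are given without a test, and levels are compared between subtypes and not between genes.

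**Figure D1:**
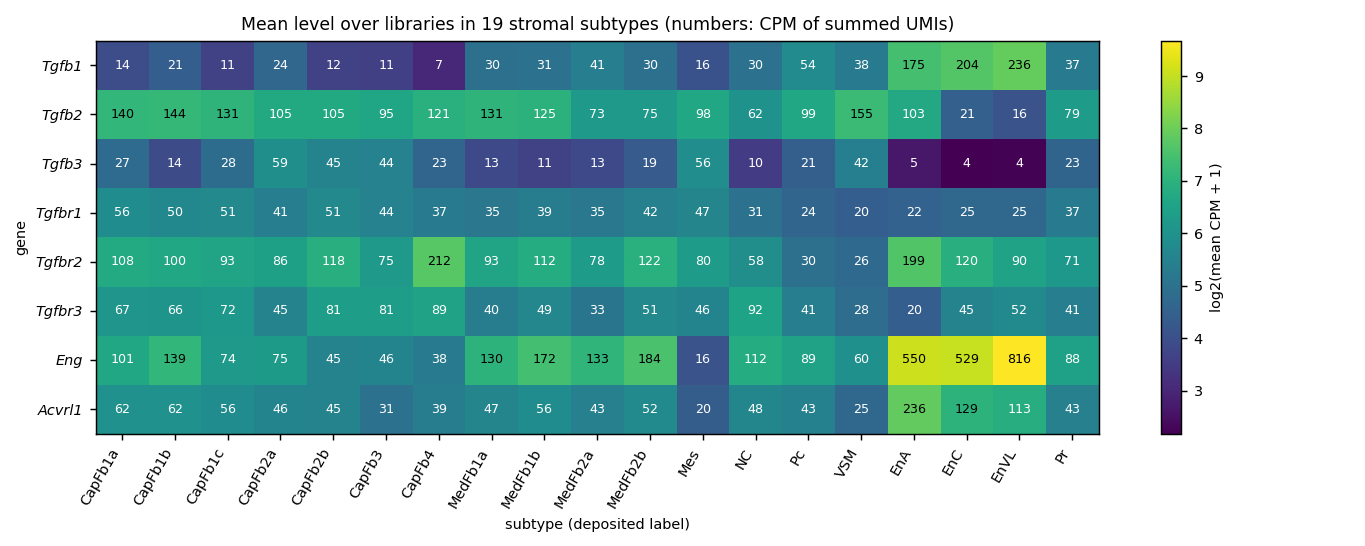
Heat map of the 8 genes (lines of the map) in the 19 stromal subtypes of the age series (columns), with the mean CPM over libraries printed in each cell and the colour giving log2(mean CPM + 1). Tgfb1, Eng and Acvrl1 are highest in EnVL, EnC and EnA, where Tgfb3 is at 3.53 to 5.34 CPM.

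Between the first embryonic libraries and later ages, Tgfbr2, Tgfbr3, Eng and Acvrl1 were mostly lower in the early libraries and Tgfb2 mostly higher. In 17 subtypes with enough cells, both the E12.5 and the E13.5 library lay below all 6 later libraries in 15 subtypes for Tgfbr2, 15 for Tgfbr3, 16 for Eng and 15 for Acvrl1, against 16.9% of all gene and subtype pairs with a mean of at least 5 CPM. This held in 6 subtypes for Tgfb1, 1 for Tgfb3 and 0 for Tgfb2 and Tgfbr1. Tgfb2 lay above all later libraries in 12 subtypes and Tgfbr1 in 3, against 26.8% of all pairs. In CapFb1b, Tgfb2 was at 308.6 and 329.1 CPM in the early libraries and at 54.96 to 113.5 CPM later, while Eng was at 8.66 and 12.49 CPM early and at 147.7 to 243.1 CPM later. Over all fibroblasts Eng stood at 8.69 CPM at E12.5 and 17.5 CPM at E13.5, against 109.9 to 188.9 CPM in the later libraries. Over all endothelium it stood at 351.5 and 336.3 CPM against 568.9 to 916.3 CPM. Each early age is 1 library, so this comparison rests on the overlap of libraries and has no test of its own, and CapFb4 had only 6 cells at E12.5 and NC 10 in each E16.5 and 7 in each 4-week library. These 17 subtypes hold NC and not MedFb2b, while the 17 tested for age hold MedFb2b and not NC.

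From E12.5 to 4 weeks, libraries of 1 age lay close together for most members, as the plot of the 3 cell classes by age shows. Each class pools subtypes whose shares of its cells changed with age (CapFb4, for example, gave 6 of 1089 fibroblasts at E12.5), and the part of that mix in the class levels was not tested. Fibroblast Tgfbr2 was at 20.8 CPM at E12.5, 34.9 CPM at E13.5, 73.5 and 75.3 CPM at E16.5, 103.3 and 101.2 CPM at P0, and 225.4 and 215.2 CPM at 4 weeks. Fibroblast Tgfbr3 was at 14.5, 17.2, 45.05 and 42.8, 56.7 and 63.1, and 117.6 and 125.8 CPM at the same ages. In both genes every library lay above those of the age before it. Endothelial Tgfb1 took another course, at 247.3 and 174.0 CPM in the single early libraries, 246.7 and 232.9 CPM at E16.5, 236.0 and 227.6 CPM at P0, and 147.1 and 165.8 CPM at 4 weeks. Mural Tgfb2 was at 313.3 CPM at E12.5, 135.7 CPM at E13.5, 94.3 and 87.6 CPM at E16.5, 153.1 and 111.9 CPM at P0 and 45.3 and 60.8 CPM at 4 weeks, its lowest age. Mural Tgfbr2 never passed 53.1 CPM in any library.

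**Figure D2:**
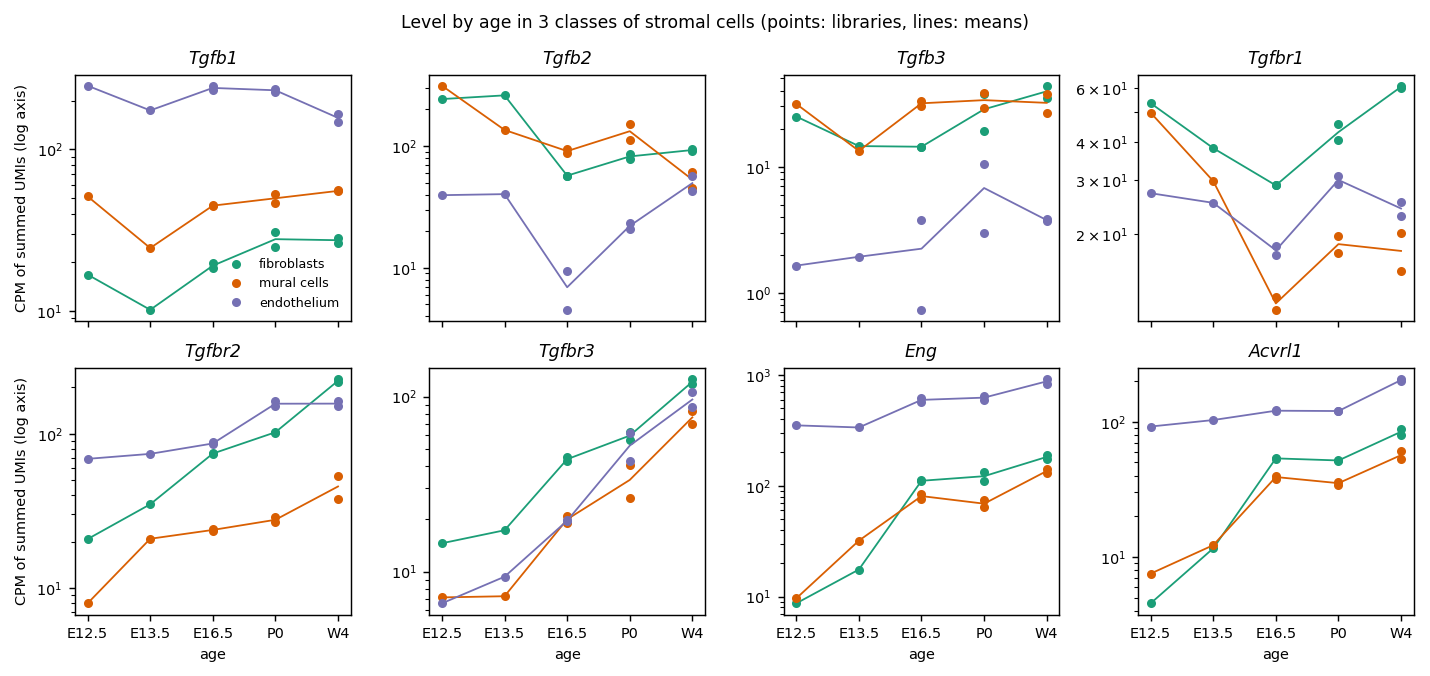
Level of each of the 8 genes (CPM, log axis) by age in fibroblasts, mural cells (Pc and VSM) and endothelium of the age series, with points for libraries and lines through the mean of each age. Fibroblast Tgfbr2 goes from 20.8 CPM at E12.5 to 215.2 and 225.4 CPM at 4 weeks, while endothelial Tgfb1 is lowest at 4 weeks among the replicated ages.

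Ages were then tested on UMIs summed per subtype and library, in the 17 subtypes with replicates (edgeR quasi-likelihood test, Benjamini-Hochberg adjustment over all genes of a subtype). Over all ages Tgfb2, Tgfbr2, Tgfbr3 and Eng passed an adjusted p of 0.05 in 17 of 17 subtypes, Acvrl1 in 16, Tgfb1 in 15, Tgfbr1 in 14 and Tgfb3 in 12, where 55.3% of all gene and subtype pairs passed. From P0 to 4 weeks 71 pairs of member and subtype passed, against 27.6% of all pairs. Of these 64 were higher at 4 weeks, against 13.7% of all pairs, and 7 were lower, against 13.9%. The receptors made up most of the rises: Acvrl1 rose in 14 subtypes, Tgfbr2 and Eng in 13 each, Tgfbr3 in 12 and Tgfbr1 in 6, and none of these 5 passed as lower in any subtype. The ligands moved both ways, with Tgfb3 higher in 3 subtypes and lower in 1, Tgfb2 higher in 2 and lower in 4, and Tgfb1 higher in 1 and lower in 2. From E16.5 to P0 41 pairs of member and subtype passed, all upwards, against 12.6% of all pairs in either direction and 6.63% upwards. They were 10 for Tgfbr3, 9 for Tgfbr2, 7 for Tgfbr1, 6 for Tgfb2, 5 for Tgfb1, 3 for Tgfb3, 1 for Eng and 0 for Acvrl1, which had 2 subtypes at an unadjusted p under 0.05. That count came down to 22 without replicate 1 of E16.5, to 21 without replicate 2 and to 22 with DESeq2.

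**Figure D3:**
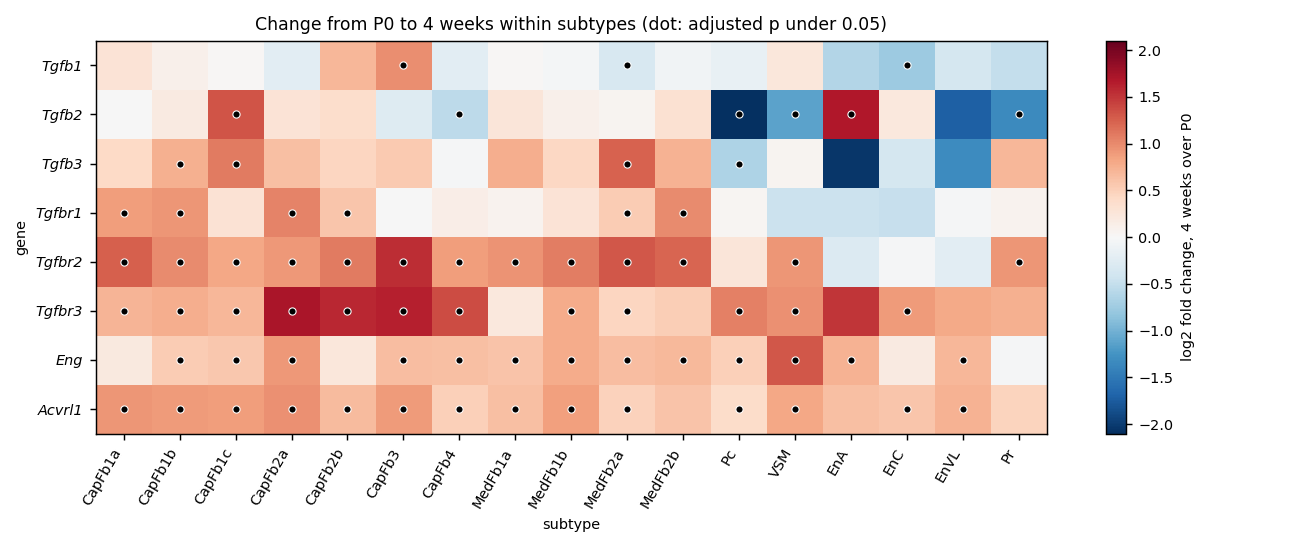
Heat map of the log2 fold change from P0 to 4 weeks of the 8 genes in the 17 tested subtypes of the age series, with a dot where the adjusted p was under 0.05 (edgeR quasi-likelihood test). Rises of Tgfbr2, Tgfbr3, Eng and Acvrl1 fill most fibroblast subtypes, while Tgfb2 falls in Pc and VSM and rises in EnA and CapFb1c.

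Tgfb2 fell in mural cells between P0 and 4 weeks and rose in arterial endothelium and one capsular subtype. In Pc it was at 119.6 and 81.04 CPM at P0 and at 24.9 and 28.2 CPM at 4 weeks, a log2 fold change of -2.09 ± 0.19 (SE, adjusted p = 7.5e-06). In VSM it was at 177.1 and 144.7 CPM and then at 68.0 and 85.1 CPM (-1.13 ± 0.15, adjusted p = 0.0021). Neither subtype overlapped between the ages. Each of these ages has 2 libraries, and the pairs were named because they were called. A lack of overlap in the single-cell pairs given here and below is therefore no further support. In EnA Tgfb2 was at 79.7 and 49.1 CPM at P0 and at 254.7 and 184.4 CPM at 4 weeks, a log2 fold change of 1.69 ± 0.28 (adjusted p = 0.0011), from 15 to 140 UMIs in 29 to 79 cells per library. In CapFb1c it was at 89.6 and 68.8 CPM and then at 207.8 and 189.2 CPM (1.31 ± 0.13, adjusted p = 1e-06). The gene was also lower in CapFb4 and in proliferating cells (Pr), but the CapFb4 call was lost without replicate 2 of 4 weeks, and the call in Pr without either E16.5 replicate or replicate 1 of 4 weeks. In EnC Tgfb2 rose earlier, from 3.51 and 8.15 CPM at E16.5 to 17.6 and 23.6 CPM at P0 (1.67 ± 0.37, adjusted p = 0.014), and this call was lost without replicate 2 of P0.

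Tgfb1 fell in capillary endothelium, from 239.8 and 227.9 CPM at P0 to 132.1 and 152.8 CPM at 4 weeks (-0.77 ± 0.11, adjusted p = 0.0019). The ages did not overlap. In the other endothelial subtypes the difference pointed the same way without passing, at -0.37 ± 0.15 in EnVL (adjusted p = 0.14) and -0.61 ± 0.23 in EnA (adjusted p = 0.12). The other calls of Tgfb1 from P0 to 4 weeks, a log2 fold change of 0.97 in CapFb3 and -0.34 in MedFb2a, were each lost without either replicate of 4 weeks. Tgfb3 rose in MedFb2a, from 13.3 and 10.8 CPM to 27.5 and 28.0 CPM (1.23 ± 0.17, adjusted p = 5.1e-05), and in CapFb1c, from 26.6 and 14.8 CPM to 44.2 and 43.1 CPM (1.09 ± 0.23, adjusted p = 0.0018). It was also higher in CapFb1b (0.75 ± 0.20, adjusted p = 0.0086, lost without replicate 2 of 4 weeks) and lower in Pc, from 28.6 and 21.2 CPM to 14.8 and 21.2 CPM (-0.65 ± 0.21, adjusted p = 0.035), where the ages met and the call was lost without replicate 1 of E16.5, of P0 or of 4 weeks. In CapFb2a Tgfb3 rose before birth, from 37.6 and 24.8 CPM at E16.5 to 84.01 and 62.8 CPM at P0 (1.31 ± 0.22, adjusted p = 0.012), a call lost without either E16.5 replicate.

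Between P0 and 4 weeks Tgfbr2 rose in all 11 fibroblast subtypes, in VSM (0.92, lost without replicate 2 of 4 weeks) and in Pr (0.93, lost without either E16.5 replicate or replicate 1 of 4 weeks), and passed in no endothelial subtype and not in Pc. In CapFb1a it was at 92.1 and 101.5 CPM at P0 and at 217.2 and 219.4 CPM at 4 weeks (1.25 ± 0.11, adjusted p = 3.4e-07). In MedFb2a it was at 75.0 and 71.1 CPM and then at 182.4 and 176.8 CPM (1.30 ± 0.08, adjusted p = 3.2e-08), after a rise from 42.7 and 43.04 CPM at E16.5 (0.62 ± 0.09, adjusted p = 0.00025). CapFb4, first of all subtypes for Tgfbr2 in both 4-week libraries but below EnA in both P0 libraries, went from 245.2 and 240.6 CPM to 431.5 and 408.4 CPM (0.88 ± 0.10, adjusted p = 1.1e-07). No fibroblast subtype named here overlapped between P0 and 4 weeks. In EnC Tgfbr2 rose from E16.5 to P0 (0.84 ± 0.12, adjusted p = 0.0026), and from P0 to 4 weeks the difference was -0.02 ± 0.12 (adjusted p = 0.94). In EnVL it was -0.23 ± 0.16 (adjusted p = 0.38) and in EnA -0.29 ± 0.21 (adjusted p = 0.43). Tgfbr1 rose in CapFb1a, from 43.9 and 53.4 CPM to 78.7 and 88.8 CPM (0.87 ± 0.15, adjusted p = 0.00028), and in MedFb2a before birth, from 14.5 and 15.98 CPM at E16.5 to 34.9 and 38.5 CPM at P0 (1.13 ± 0.12, adjusted p = 2.7e-05). Acvrl1 rose after birth in EnC, from 129.7 and 115.1 CPM to 193.2 and 189.6 CPM (0.59 ± 0.11, adjusted p = 0.0055), and in CapFb1b, from 60.9 and 62.4 CPM to 123.0 and 111.5 CPM (0.90 ± 0.09, adjusted p = 9e-06).

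Each co-receptor rose in subtypes of fibroblasts, mural cells and endothelium. Tgfbr3 went from 65.9 and 69.4 CPM at P0 to 193.4 and 183.4 CPM at 4 weeks in CapFb2b (1.59 ± 0.11, adjusted p = 1e-06), and from 76.3 and 91.5 CPM to 200.2 and 205.6 CPM in CapFb4 (1.38 ± 0.11, adjusted p = 1.1e-09). In Pc Tgfbr3 rose from 35.0 and 44.4 CPM to 104.8 and 85.7 CPM (1.05 ± 0.14, adjusted p = 0.00013), where Tgfb2 fell. In EnC it rose both from E16.5 to P0 (1.20 ± 0.16, adjusted p = 0.002) and from 50.2 and 55.02 CPM at P0 to 112.8 and 91.4 CPM at 4 weeks (0.89 ± 0.16, adjusted p = 0.0046). Eng rose in VSM, from 44.5 and 49.9 CPM to 110.5 and 131.3 CPM (1.30 ± 0.13, adjusted p = 0.00056), in MedFb1b, from 190.4 and 183.9 CPM to 320.8 and 334.8 CPM (0.78 ± 0.07, adjusted p = 9.3e-07), and in EnVL, from 749.6 and 738.9 CPM to 1345 and 1141 CPM (0.70 ± 0.13, adjusted p = 0.0035). None of these pairs of ages overlapped, with 2 libraries per age. In EnC the difference of Eng was 0.19 ± 0.10 (adjusted p = 0.24).

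Bulk RNA-seq gave the same genes in populations sorted by surface markers, none of which is a member. Fewer cells of a type and less RNA per cell cannot be told apart in such libraries, and the labels do not say whether libraries came from separate mice, so p-values measure the spread between libraries, which may be technical. Each group of 6 held 3 libraries with the sample-name prefix DFCK and 3 with TXCK, whose meaning the labels do not give. At P0 17 of 32 pairs of member and nonepithelial population differed from the mean of the other 3 populations, 10 higher and 7 lower, where 17.5% of all pairs did (11.2% higher and 6.27% lower). At 4 weeks 9 of 32 differed, 5 higher and 4 lower, against 20.1% of all pairs (12.9% higher and 7.17% lower). With DFCK or TXCK libraries alone the count at P0 was 6 or 9. In a fit of the nonepithelial libraries alone, chosen after the data were seen, the counts were 19 at P0, against 19.2% of all pairs, and 16 at 4 weeks, against 22.2%.

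CD31+ cells were low in Tgfb2 and Tgfb3 and high in Eng. At P0 Tgfb2 ranged from 0.164 to 34.2 CPM in CD31+ libraries (median 17.3) and from 160.9 to 233.0 CPM in Ly51+gp38- libraries (median 204.2), without overlap. Its difference from the other populations was -3.27 on the log2 scale in CD31+ (adjusted p = 5.8e-09, and -3.00 without the P0 library that stood apart) and 1.48 in Ly51+gp38- (adjusted p = 0.00064, lost with TXCK libraries alone). Tgfb3 ranged from 0 to 12.9 CPM in CD31+ at P0 (median 1.78) and from 82.9 to 135.7 CPM in gp38+CD26+ (median 126.4), with differences of -4.93 (-4.68 without the P0 library that stood apart) and 2.13. At 4 weeks Tgfb3 was at 0 to 20.7 CPM in CD31+ libraries (-5.18, adjusted p = 5.2e-08), at 100.3 to 232.3 CPM in Ly51+gp38- and at 150.3 to 279.6 CPM in gp38+CD26+. Eng ranged from 312.9 to 1289 CPM in CD31+ at P0 (median 1187) and from 1405 to 1621 CPM at 4 weeks (median 1463), and it differed from the other populations by 1.95 at P0 (adjusted p = 0.0056, lost within each prefix, and 2.14 without the P0 library that stood apart) and 2.47 at 4 weeks (adjusted p = 0.00048, lost with DFCK libraries alone). At 4 weeks no CD31+ library overlapped with another population for Eng, whose highest value elsewhere was 473.8 CPM. Acvrl1 was at 148.6 ± 27.3 CPM in CD31+ at P0 and 125.8 ± 35.7 CPM at 4 weeks, against 34.7 to 62.7 CPM in the other means. Its differences of 1.45 ± 0.68 and 1.17 ± 0.70 did not pass with all populations in 1 fit, nor did the P0 difference of 1.54 without the P0 library that stood apart (adjusted p = 0.12). They passed with the nonepithelial libraries alone, at 1.44 (adjusted p = 1.3e-07) and 1.17 (adjusted p = 1.2e-05), or 1.54 (adjusted p = 7.1e-08) and 1.17 (adjusted p = 8.4e-06) without that library.

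Tgfbr2 separated gp38+ fibroblasts and endothelium from mural cells in bulk as in single cells. At 4 weeks it ranged from 448.1 to 550.3 CPM in gp38+CD26+ (median 483.5, n = 5), 255.3 to 309.9 CPM in gp38+CD26- (median 284.2), 143.7 to 278.2 CPM in CD31+ (median 206.6) and 57.8 to 80.0 CPM in Ly51+gp38- (median 73.5). Gp38+CD26+ lay above every other population (1.74, adjusted p = 3.3e-05, lost with DFCK libraries alone) and Ly51+gp38- below (-2.19, adjusted p = 1.1e-05). Tgfb1 was scarce in bulk. Its CD31+ level at P0 was 7.89 ± 5.595 CPM (n = 6, 0.739 to 17.4), above the other populations by 4.02 (adjusted p = 0.00031, lost with TXCK libraries alone, and 4.26 without the P0 library that stood apart), whereas endothelium of the age series held 236.0 and 227.6 CPM at that age. At 4 weeks it was 3.79 ± 2.68 CPM, and the difference of 1.10 ± 0.95 from the other populations did not pass (adjusted p = 0.54). Why the assays gave such different levels of Tgfb1 was not tested. Levels per kilobase of exon allow for the length of a gene alone. On this scale the highest group mean of Eng was 368 ± 18.9 CPM per kb, in CD31+ at 4 weeks. Those of Tgfbr2 and Tgfb3 were 60.2 ± 4.55 and 56.7 ± 15.2, both in gp38+CD26+ at 4 weeks. The others were reached at P0. They were 39.3 for Tgfbr3 and 29.8 for Tgfbr1 in gp38+CD26+, and 33.98 ± 5.04 for Tgfb2 in Ly51+gp38-. In CD31+ they were 34.8 for Acvrl1 and 1.56 ± 1.11 for Tgfb1. Other differences between genes, such as that of Tgfb1 between the assays, remain in these values, so they give no order of the genes.

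**Figure D4:**
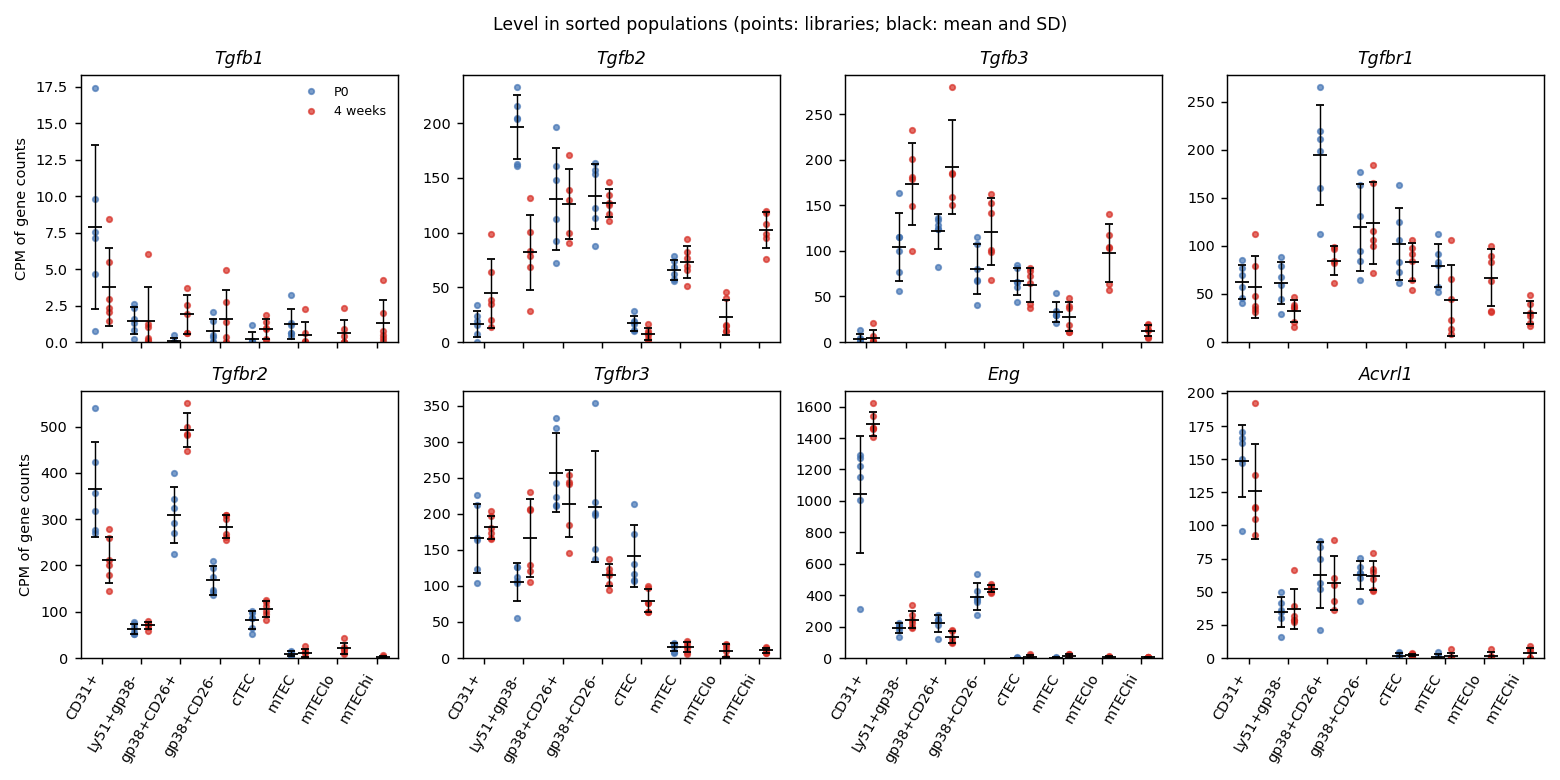
CPM of the 8 genes in every bulk library (points, P0 blue and 4 weeks red) of the sorted populations, with the mean and SD of each group. At 4 weeks the CD31+ libraries lie at 1405 to 1621 CPM for Eng, above all other libraries, and the gp38+CD26+ libraries at 448.1 to 550.3 CPM for Tgfbr2.

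Ages were tested in bulk as well. Over 6 populations 3 of 48 pairs passed the adjusted test, all higher at 4 weeks, where 9.86% of all pairs passed and 6.05% were higher. The nonepithelial populations held 2 of the 3, among 32 pairs, where 11.3% of all pairs passed, and 11 of the 48 had an unadjusted p under 0.05, where 22% of all pairs did. Tgfb2 in CD31+ cells ranged from 0.164 to 34.2 CPM at P0 (median 17.3) and from 13.3 to 98.4 CPM at 4 weeks (median 36.7), so the ages overlapped. The log2 fold change was 1.56 ± 0.45 (adjusted p = 0.015). It was 1.65 ± 0.56 with DFCK libraries alone (adjusted p = 0.14), 1.37 ± 0.74 with TXCK libraries alone (adjusted p = 0.38) and 1.26 ± 0.39 without the P0 library that stood apart (adjusted p = 0.028). Mural markers in CD31+ libraries summed to 46.8 to 157.9 CPM at P0 and 640 to 1815 CPM at 4 weeks, against 88823 to 114218 CPM in Ly51+gp38- at 4 weeks, and erythroid markers to 6 to 258 CPM and 206 to 5464 CPM. Their part in the result was not tested.

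Tgfb1 in gp38+CD26+ cells was at 0 CPM in 5 of 6 P0 libraries and 0.460 CPM in the other, and at 0.614 to 3.74 CPM at 4 weeks (4.61 ± 1.46, adjusted p = 0.03), a call lost within each prefix and without replicate 6 of 4 weeks (4.14 ± 1.47, adjusted p = 0.067). Mesothelial markers in these libraries summed to 0 to 325.1 CPM at P0 and 438.1 to 5181 CPM at 4 weeks, and their part in the result was not tested. Eng in cTEC was at 0 CPM in 5 of 6 P0 libraries and 4.01 CPM in the other, and at 0 to 27.7 CPM at 4 weeks (3.84 ± 0.94, adjusted p = 0.0034), a call lost within each prefix. Endothelial markers in the same cTEC libraries summed to 0 to 6.03 CPM at P0 and 8.86 to 96.6 CPM at 4 weeks, and their part in the result was not tested.

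Among the members only Tgfb2 was called for an age change that differed between populations, no larger a share than among all genes. The interaction over 6 populations passed for 1 of 8 members, Tgfb2 (adjusted p = 0.0057), where 21.2% of all genes passed. The age change of 1 nonepithelial population against the other 3 passed for 1 of 32 pairs, Tgfb2 in CD31+ (1.83 ± 0.51, adjusted p = 0.017), where 4.06% of all pairs did. The difference was 1.56 (adjusted p = 0.022) without the P0 CD31+ library that stood apart, and the call was lost within each prefix. In Ly51+gp38- cells Tgfb2 went from 160.9 to 233.0 CPM at P0 to 28.0 to 131.7 CPM at 4 weeks, without overlap, at -1.05 ± 0.44 (adjusted p = 0.11), and it passed at -1.09 (adjusted p = 0.037) without that CD31+ library, as did Tgfb2 in cTEC at -1.18 (adjusted p = 0.027). Mural markers in Ly51+gp38- summed to 31367 to 41530 CPM at P0 and 88823 to 114218 CPM at 4 weeks. Single-cell and bulk Tgfb2 differences from P0 to 4 weeks thus had the same sign in mural cells (-2.09 in Pc, -1.13 in VSM and -1.05 in Ly51+gp38-), as the plot of their intervals shows. In endothelium the values, whose difference was not tested, were 1.56 in CD31+ cells, 1.69 in EnA, 0.21 ± 0.37 in EnC (adjusted p = 0.73) and -1.72 ± 0.75 in EnVL (adjusted p = 0.16, from 2 to 20 UMIs per library). EnA held 449 endothelial cells of the age series, EnC 2366 and EnVL 838.

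Tgfbr2 and Tgfbr3 passed in no population when all populations were in 1 fit. In a fit without epithelium, chosen after the data were seen, 9 of 32 pairs passed, against 11.2% of all pairs. There Tgfbr2 was higher at 4 weeks in gp38+CD26+ (0.83 ± 0.17, adjusted p = 0.00065) and gp38+CD26- (0.92 ± 0.16, adjusted p = 6.4e-05) and lower in CD31+ (-0.67 ± 0.16, adjusted p = 0.0049). In libraries, gp38+CD26+ went from 225.4 to 400.0 CPM (median 308.0) to 448.1 to 550.3 CPM and gp38+CD26- from 135.7 to 210.3 CPM (median 160.7) to 255.3 to 309.9 CPM, neither overlapping, while CD31+ went from 270.2 to 539.7 CPM (median 337.6) to 143.7 to 278.2 CPM, with overlap. The age change of Tgfbr2 in CD31+ differed from that of the other 3 populations by -1.36 ± 0.19 in this fit (adjusted p = 3.7e-06), 1 of 6 such differences among 32 pairs, against 4.39% of all pairs. Without the P0 CD31+ library that stood apart this fit gave -0.75 ± 0.16 for the age change of Tgfbr2 in CD31+ (adjusted p = 0.0018) and -1.44 ± 0.19 for its difference from the other populations (adjusted p = 1.3e-06). With all populations in 1 fit the age changes in gp38+CD26+, gp38+CD26- and CD31+ were 0.84, 0.98 and -0.64 and none passed (adjusted p = 0.24, 0.11 and 0.42). In that fit the difference of CD31+ from the other populations was -1.38 and did not pass either. Tgfbr3 rose in Ly51+gp38- (0.80, adjusted p = 0.013) and fell in gp38+CD26- (-0.72, adjusted p = 0.019) in the fit without epithelium.

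**Figure D5:**
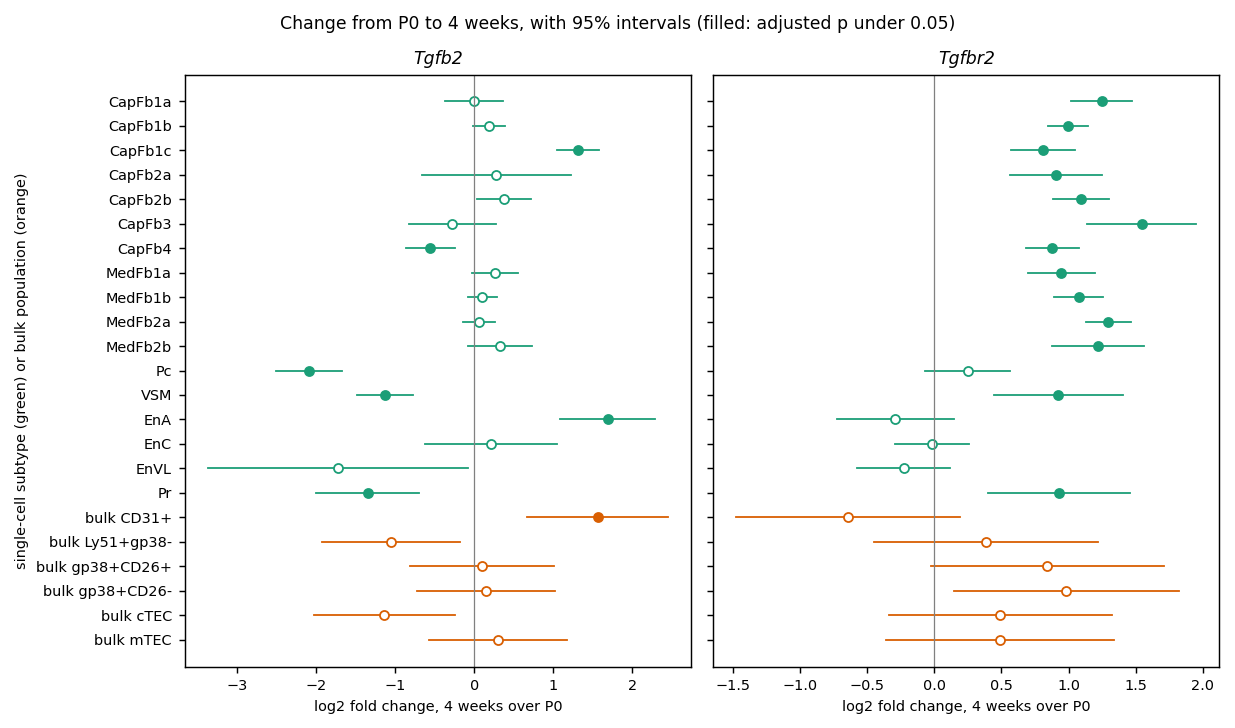
Log2 fold change from P0 to 4 weeks of Tgfb2 and Tgfbr2 with 95% intervals, in single-cell subtypes (green) and bulk populations (orange), filled where the adjusted p was under 0.05. Tgfb2 lies at -2.09 in Pc and 1.69 in EnA, and Tgfbr2 lies above 0 in the fibroblast subtypes and at -0.29 to -0.02 in the endothelial ones.

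In epithelium, which the age series lacks, Tgfb2 was higher in mTEC and Tgfbr2 and Tgfbr3 were higher in cTEC. Of 24 pairs over 3 epithelial comparisons 10 passed, 4 higher and 6 lower in mTEC or mTEChi, where 27.8% of all pairs passed (21.5% higher and 6.31% lower). Tgfb2 was at 9.67 to 28.7 CPM in cTEC (median 17.4) and 55.6 to 78.4 CPM in mTEC (median 65.4) at P0, without overlap, and higher in mTEC by 2.05 ± 0.45 (adjusted p = 0.00031, lost with TXCK libraries alone). At 4 weeks it was at 1.33 to 16.3 CPM and 51.1 to 94.03 CPM (3.49 ± 0.48, adjusted p = 4e-08). Within mTEC at 4 weeks Tgfb2 was at 75.8 to 119.9 CPM in mTEChi and 10.1 to 45.5 CPM in mTEClo (2.44 ± 0.46, adjusted p = 8.1e-05). Tgfbr2 was lower in mTEC than in cTEC by -3.08 at both ages (adjusted p = 1.5e-07 and 2e-07), with 51.8 to 102.2 CPM in cTEC and 0.730 to 15.6 CPM in mTEC at P0. Tgfbr3 was lower by -3.10 (adjusted p = 3.6e-08) at P0 and -2.25 (adjusted p = 2.6e-05) at 4 weeks, with 106.8 to 214.1 CPM in cTEC and 6.44 to 21.1 CPM in mTEC at P0. Tgfbr2 was also lower in mTEChi than in mTEClo (-2.60, adjusted p = 1.9e-05, lost with DFCK libraries alone). Tgfb3 was lower in mTEChi, at 4.74 to 19.2 CPM, than in mTEClo, at 57.3 to 140.9 CPM (-2.73, adjusted p = 0.004, lost with TXCK libraries alone). Eng was at 0 CPM in 5 and 4.01 CPM in 1 of the 6 cTEC libraries and at 1.33 to 6.86 CPM in mTEC at P0, with overlap (2.46 ± 0.93, adjusted p = 0.035), and the call was lost within each prefix. Mural markers summed to 2245 to 3465 CPM in mTEC and 88.1 to 191.6 CPM in cTEC at P0, and to 1750 to 2230 CPM in mTEChi and 2665 to 4511 CPM in mTEClo, and their part in these results was not tested. The newborn wild-type single cells, in which each cell bears its own label, held 42.4 ± 6.2 CPM of Tgfbr2 in perinatal cortical TEC (PcTEC), 30.6 ± 2.4 CPM in mature cortical TEC (McTEC) and 3.24 ± 2.87 CPM in mature medullary TEC (MmTEC, n = 3). They held 62.6, 52.7 and 7.89 CPM of Tgfbr3 and 12.9, 10.8 and 38.3 CPM of Tgfb2 in the same subtypes.

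No member passed between genotypes. In 18 subtypes with at least 20 cells in every newborn library, 0 of 102 pairs of member and subtype passed (edgeR quasi-likelihood test), where 0.0481% of all gene and subtype pairs did. DESeq2 also called 0, and 11 pairs had an unadjusted p under 0.05, where 6.72% of all pairs did. On simulated Pc counts the same test recovered 42 of 100 changes of 2-fold, so a change of that size could be missed. One of the 18 subtypes was that labelled thymocytes (Thy), which are haematopoietic. Tgfbr1 had a positive difference, libraries labelled Tbx1+/- Crkl+/- minus wild type, in all 18 subtypes, with a median of 0.46 and a range of 0.18 to 1.10 on the log2 scale. The libraries labelled Tbx1+/- Crkl+/- had a median of 2391 to 2551 UMIs per cell and those of wild type 2577 to 4686, and the part of depth in the result was not tested. The cells of these subtypes come from the same 6 libraries, so the subtypes are not independent. How many of all genes had the same sign in all 18 subtypes was not counted. In CapFb4 Tgfbr1 was at 164.3, 166.9 and 237.6 CPM in the heterozygous libraries and at 109.7, 99.1 and 75.6 CPM in wild type, without overlap (1.10 ± 0.34, unadjusted p = 0.0018, adjusted p = 0.19), from 12 to 67 UMIs per library. It passed without wild-type replicate 1 (1.20, adjusted p = 0.034). That fit called 120 of 3775 genes in CapFb4, where the fit of all libraries called 4 of 3386. Eng in PcTEC was at 8.93, 28.4 and 20.4 CPM against 11.9, 5.34 and 7.03 CPM, with overlap (1.38 ± 0.41, unadjusted p = 0.0057, adjusted p = 0.64), and passed when no filter on low counts was set (1.33, adjusted p = 0.027). Without the filter 73 of 19437 genes passed in PcTEC, and with it 0 of 11954. Of the other pairs with an unadjusted p under 0.05 and no call, only Tgfb2 in Pc was lower in the heterozygous libraries (-0.46 ± 0.22). Those higher were Tgfbr1 in CapFb1b (0.58), proliferating TEC (0.84) and Thy (0.88) and Tgfbr3 in CapFb1a (0.55) and CapFb4 (0.97). Also higher were Eng in intertypical TEC (ItTEC, 1.67 ± 0.48) and McTEC (1.55 ± 0.50), and Acvrl1 in PcTEC (1.10 ± 0.45). The 5 endothelial markers in PcTEC summed to 51.3, 118.4 and 81.7 CPM in the heterozygous libraries and 60.8, 25.4 and 42.7 CPM in wild type, and heterozygous replicate 2, with most Eng in all 3 of these subtypes, had the highest marker sum in each (288.7 CPM in ItTEC and 144.8 CPM in McTEC). Their part in the result was not tested. Tgfbr1 levels in the newborn libraries, such as 118.2 ± 25.6 CPM in wild-type CapFb1a, stood above the 43.9 and 53.4 CPM of the P0 libraries of the age series, and the 2 data sets differ in sort and fixation.

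The other genes of the pathway were followed as a list of 60 genes grouped by role. From P0 to 4 weeks 358 of 900 pairs of gene and subtype passed, 204 higher and 154 lower (39.8%, against 27.6% of all pairs), with a median log2 fold change of the list of -0.271 to 0.266 over the subtypes beside -0.0791 to 0.00945 for all genes. By role, 89 of 189 pairs passed for genes of latency and activation (63 higher), 164 of 321 for frequent target genes (71 higher), 36 of 133 for other receptors and co-receptors (30 higher), 22 of 88 for SMADs (14 higher) and 47 of 169 for inhibitors (26 higher). From E16.5 to P0 310 of 900 passed, 253 higher and 57 lower (34.4%, against 12.6% of all pairs, 6.63% being higher). In bulk 69 of 354 pairs passed between P0 and 4 weeks, 49 higher and 20 lower (19.5%, against 9.86% of all pairs, 6.05% being higher). By role these were 40 of 114 for target genes, 14 of 78 for latency and activation, 7 of 60 for other receptors and co-receptors, 5 of 60 for inhibitors, 3 of 36 for SMADs and 0 of 6 for ligands of Eng and Acvrl1. Between genotypes 0 of 628 passed. The members had 64 pairs higher and 7 lower from P0 to 4 weeks in single cells, where the list had 204 and 154.

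The 3 genes of the list with the largest bulk changes in each nonepithelial population are named here. Ltbp1, which encodes a latent TGF-β binding protein, was at 117.8 to 236.8 CPM at P0 and 2500 to 3481 CPM at 4 weeks in gp38+CD26- cells (4.22 on the log2 scale), and at 24.6 to 98.02 CPM and 317.9 to 629.6 CPM in Ly51+gp38- cells (3.40). Ltbp2, a related matrix protein, was at 0 to 6.08 CPM and 22.6 to 88.1 CPM in gp38+CD26- (5.54), and at 0 to 0.0821 CPM and 57.4 to 189.3 CPM in CD31+ cells. Thbs1, which encodes the activator thrombospondin-1, went down from 291.1 to 729.0 CPM to 13.6 to 39.5 CPM in gp38+CD26+ (-4.06). None of these groups overlapped. Of target genes, Tgfbi was at 0 to 9.74 CPM and 42.3 to 94.1 CPM in gp38+CD26- (5.56), and Tagln, a smooth muscle gene, at 91.3 to 230.0 CPM and 403.5 to 763.3 CPM in Ly51+gp38- (2.18).

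The remaining named genes were low. Cdkn2b, a cell cycle inhibitor and TGF-β target, was at 0 CPM at P0 and at 0 to 9.19 CPM at 4 weeks in CD31+ cells, where the receptor gene Acvr1c was at 0 to 2.495 CPM and then at 0. Cd109, which encodes a TGF-β co-receptor, was at 0 to 10.46 CPM and then at 0 in Ly51+gp38-, and at 0 to 1.38 CPM and then 4.51 to 20.8 CPM in gp38+CD26+. Itgb6, a subunit of an integrin that activates latent TGF-β, was at 0 and then at 0 to 3.70 CPM in gp38+CD26+.

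The members' patterns over the 19 subtypes were compared with those of all genes with a mean of at least 5 CPM by Pearson's r, as a description, since the subtypes share libraries and depth. Nearest to Tgfb1 was Smagp (r = 0.978 over 19 subtypes, 0.76 over the 14 bulk groups), nearest to Eng was Elk3 (0.958 and 0.703), and nearest to Acvrl1 was Nxpe4 (0.954 and 0.103). For Tgfbr2 the nearest was Cd34 (0.935 and 0.855), for Tgfb3 Tcea3 (0.955 and 0.57), for Tgfbr1 Fbln1 (0.933 and 0.713), for Tgfb2 Magee1 (0.92 and 0.292) and for Tgfbr3 Lztfl1 (0.842 and 0.0834). The low bulk values of the last 2 and of Nxpe4 show likeness over the subtypes that the bulk groups, which include epithelium, did not share. Among the members, Eng and Acvrl1 were alike in both (0.883 and 0.969), and Tgfb1 and Tgfb2 ran opposite over the subtypes (-0.709, and -0.139 in bulk). Tgfbr2 and Tgfbr3 had r = 0.187 over the subtypes and 0.91 over the bulk groups. The subtypes hold no epithelium, where both genes were higher in cTEC than in mTEC, so these values cover different cell types.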

How the data were processed

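Single-cell libraries were made by the authors with Cell Ranger 3.1.0 (mm10) and kept after filters on detected genes and mitochondrial share and removal of doublets and of contaminating clusters (the newborn table keeps a subtype labelled thymocytes), and the deposited single-cell values are UMI counts. Bulk reads were aligned by the authors with STAR 2.5.3a and counted per gene with HTSeq, and the deposited bulk values are counts. GRCh38 is also named in the submitters' processing notes, with no role. Rows of no gene held 7.814% to 29.4% of bulk counts and were left out. Cell subtypes are the deposited labels. UMIs were summed per library and subtype, with at least 20 cells for a test and 5 for a level. CPM used all gene counts of the library or sum. edgeR 4.0.16 (quasi-likelihood, TMM, filterByExpr) under R 4.3.3 tested all genes that passed the filter (20417 in bulk), with Benjamini-Hochberg adjustment and a threshold of 0.05, and DESeq2 1.42.0 was an alternative. The authors compared ages over cells with a Kruskal-Wallis test. Here libraries are the replicates. Bulk libraries under 1000000 gene counts were left out. The scripts were tested on simulated data with 100 genes changed 2-fold and 100 changed 4-fold. They recovered 42 and 92 for genotype in Pc, 22 and 86 for Pc from P0 to 4 weeks, and 52 and 97 for bulk CD31+ between these ages. Each simulation had a fixed spread. Those for ages held only P0 and 4-week libraries, whereas the tests fitted further groups with them. In the bulk fit the SE of the CD31+ age change ran from 0.35 (Tgfbr1) to 1.22 (Tgfb1). The recovered counts therefore do not measure the power of the age tests for the members. Precision is limited by counting in small subtypes, and a count of 0 allows up to 3 counts. Members and lists were chosen with earlier results of these data known. All 8 members are named, and of the pathway list the 3 genes with the largest absolute change among those past the threshold in each nonepithelial bulk population.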

Additional observations from a re-analysis of the deposited data

Results flagged for a closer look

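Each member was examined in each of the 14 bulk groups, of 5 or 6 libraries, and 19 of these sets had a library far from the others by Dixon's test, where chance gives about 1 in 20, or 5.6. Values are in CPM, with the nearest other library in parentheses. Replicate 1 of P0 CD31+ was low for Eng, at 312.9 (1008), and Acvrl1, at 96.1 (146.9). For Tgfb1 the high libraries were P0 gp38+CD26+ replicate 1 at 0.4604 (0), P0 cTEC replicate 2 at 1.154 (0.09693), P0 mTEC replicate 6 at 3.193 (1.328), 4 weeks Ly51+gp38- replicate 1 at 6.04 (1.229) and 4 weeks mTEC replicate 4 at 2.25 (0.6173). For Tgfb3 they were CD31+ replicate 6 at P0, at 12.88 (4.371), CD31+ replicate 6 at 4 weeks, at 20.73 (6.159), and 4 weeks gp38+CD26+ replicate 6 at 279.6 (186), while P0 gp38+CD26+ replicate 4 was low at 82.86 (123.7). For Tgfbr3, P0 gp38+CD26- replicate 4 was high at 353.6 (216.5) and P0 Ly51+gp38- replicate 5 low at 55.15 (103.7). For Eng, P0 cTEC replicate 3 at 4.009 (0) and P0 mTEC replicate 1 at 6.862 (3.193) were high. For Acvrl1 the high libraries were P0 mTEC replicate 1 at 4.483 (1.305), 4 weeks Ly51+gp38- replicate 1 at 66.15 (39.45), 4 weeks mTEC replicate 1 at 6.967 (0.8985) and 4 weeks mTEClo replicate 6 at 7.049 (1.811).

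The age change of Tgfb2 was flagged as differing between populations. In CD31+ cells it exceeded that of the other 3 nonepithelial populations by 1.83 on the log2 scale, and the interaction over 6 populations had an adjusted p of 0.0057 (edgeR), but the call was lost within each prefix. It was 1 of 32 pairs and 1 of 8 members, where 4.06% of all pairs and 21.2% of all genes passed. Mural markers in CD31+ libraries went from 46.8 to 157.9 CPM at P0 to 640 to 1815 CPM at 4 weeks, and their part in the result was not tested.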

How the results depend on the processing

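In bulk the only libraries left out 1 at a time were P0 CD31+ replicate 1 and each kept gp38+CD26+ library of 4 weeks. In the age series they were those of E16.5, P0 and 4 weeks, and in the newborn data all of them. Of 41 bulk calls of members 39 held with DESeq2's size factors, 40 with DESeq2, 39 with no filter on low counts, 19 with DFCK and 24 with TXCK libraries alone. Of 237 single-cell calls 55 were lost with DESeq2 and 198 to 224 held without 1 library, and 0 reversed. The bulk age count of 3 was 5 with DESeq2, 1 with DFCK libraries alone and 2 with TXCK alone, none of them among the 3, and 2 to 5 without 1 library (5 without P0 CD31+ replicate 1, added after the data were seen). In nonepithelial populations the count of 2 was 1 with DFCK or TXCK alone, in both the otherwise uncalled Tgfb3 in CD31+, 9 with nonepithelial libraries alone (added after the data were seen) and 1 to 3 without 1 library. Population calls at 4 weeks (9) were 6 with DFCK alone, 16 with nonepithelial libraries alone and 9 to 11 without 1 library. Those at P0 (17) were 6 with DFCK alone, 9 with TXCK alone and 15 to 16 without 1 library. The interaction over 6 populations (1) was 3 with DESeq2, 2 with all 84 libraries, 2 with prefix as a term, 1 with DFCK alone (Tgfb3, not Tgfb2) and 0 with TXCK alone. It was 1 in every fit that left out 1 of the bulk libraries named above. That per population (1) was 4 with DESeq2, 1 with DFCK alone (Tgfb3 in CD31+), 0 with TXCK alone, 6 with nonepithelial libraries alone and 1 to 2 without 1 library (2 without P0 CD31+ replicate 1). Single-cell calls from E16.5 to P0 (41) were 22 with DESeq2 and 21 to 43 without 1 library, and genotype calls (0) were 1 with no filter and 0 to 1 without 1 library. Tgfb3 in CD31+, 0.61 ± 0.68 and no call with all libraries, was -8.97 with DFCK alone, where all 3 libraries of 4 weeks were at 0 and the fitted size is no bound, and 3.14 with TXCK alone. With nonepithelial libraries alone and P0 CD31+ replicate 1 left out (added after the data were seen) the counts were 11 between ages, 18 and 21 between populations at 4 weeks and P0, and 8 for the difference per population. The cause of these changes was not tested. With the replicate number as a block the counts were 9 at 4 weeks and 17 at P0 between populations, 11 in epithelium (10 without it), 70 and 42 in single cells from P0 to 4 weeks and from E16.5 to P0, and 0 between genotypes. The numbers did not pair the samples (median correlation 0.0002 in the age series, -0.013 in the newborn and 0.0195 and 0.0107 in bulk). No paired analysis was possible for bulk ages because positions are shared only within an age. EnA rested on 15 to 140 Tgfb2 UMIs per library at P0 and 4 weeks.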
